A study of Mus musculus with 5 samples.

Results

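Of the 22756 CTCF peaks listed for NIH3T3 mouse fibroblasts, 1443 lay on chromosome 7. They were taken as every interval that the list places on that chromosome, whatever its width, and they were set against the 21111 peaks of the other 18 autosomes. The cells were NIH3T3, an established line of mouse embryonic fibroblasts, and every group carried the same 3 constructs: H2B-mCherry, a fluorescent histone, the doxycycline-responsive activator rtTA3G, and CDX2 under the TRE3G promoter. CDX2 is a homeobox transcription factor of intestine and trophectoderm. Of the immunoprecipitations of CTCF, 2 came from cells treated for 6 h with doxycycline, which switches CDX2 on, and 2 from untreated cells, and the 1 input library was untreated. The list combined both conditions and ties no interval to a library, so no value below compares the conditions, and there were no replicates to give a spread. The labels do not say whether the cells were 1 clone or how the 2 libraries of a condition were derived. The reads behind each peak are unknown.

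CTCF is a zinc finger protein that binds DNA at insulators, promoters and the anchors of chromatin loops, where it halts the cohesin complex. Olfactory receptor genes (symbols beginning with Olfr) and vomeronasal receptor genes (Vmn1r and Vmn2r) encode the receptors of odours and pheromones. They sit in long tandem arrays, and each sensory neuron uses very few of them. Their expression in these cells was not measured. Mouse chromosome 7 carries several of these arrays beside regions dense in other genes.

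CTCF recognises DNA by a core of 12 bases, and where the peaks met gene starts the sequence can be read. Windows of 300 bases around annotated gene starts, 250 before the start and 50 from it on, came from RefSeq on GRCm38.p6, the assembly behind mm10. Of the chromosome 7 windows, 59 windows of 53 genes held the midpoint of 1 of 51 peaks. The windows were searched on both strands for the CTCF core consensus with at most 1 mismatch. A match was found in 30 of the 59, and in all 30 a match lay within the peak. The windows were chosen for holding a peak midpoint, so a peak can cover much of its window. How much window sequence lay under a peak was not measured, so the second count has no background. The 6 sequences below are those of the rule for printed promoters, by the number of matches and then by peak width, and show how the core sits in gene starts under a peak. Each is read 5′ to 3′ along its gene and covers 280 bases, ending 30 bases into the gene, with the matches in capitals.

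Vmn2r29 encodes a vomeronasal type 2 receptor, and it was the only receptor gene of chromosome 7 with a peak at an end. Its window lies on the minus strand at chr7:7278260-7278539, under a peak of 717 bp at chr7:7277928-7278644, and the match shown has 0 mismatches; 2 further matches, which overlap each other, lie past the printed end.
Vmn2r29: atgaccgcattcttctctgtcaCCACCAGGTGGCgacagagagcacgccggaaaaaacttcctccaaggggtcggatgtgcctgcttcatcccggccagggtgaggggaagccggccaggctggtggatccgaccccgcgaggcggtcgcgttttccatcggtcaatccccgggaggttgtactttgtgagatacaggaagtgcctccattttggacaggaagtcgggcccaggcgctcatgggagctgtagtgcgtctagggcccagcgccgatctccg
Gm39000 is a predicted gene on the minus strand at chr7:43466348-43466627, under a peak of 319 bp at chr7:43466426-43466744. Its 2 matches, 1 on each strand, overlap and appear as 1 run of capitals.
Gm39000: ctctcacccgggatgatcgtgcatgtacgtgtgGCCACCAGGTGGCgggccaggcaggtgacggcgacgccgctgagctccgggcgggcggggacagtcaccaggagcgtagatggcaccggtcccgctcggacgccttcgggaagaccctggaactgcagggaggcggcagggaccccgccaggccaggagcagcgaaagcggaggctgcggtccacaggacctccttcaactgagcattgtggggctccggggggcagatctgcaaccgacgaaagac
Synm encodes the intermediate filament protein synemin. Its window is on the minus strand at chr7:67759713-67759992, under a peak of 318 bp at chr7:67759681-67759998, and has 2 matches on the strand of the gene.
Synm: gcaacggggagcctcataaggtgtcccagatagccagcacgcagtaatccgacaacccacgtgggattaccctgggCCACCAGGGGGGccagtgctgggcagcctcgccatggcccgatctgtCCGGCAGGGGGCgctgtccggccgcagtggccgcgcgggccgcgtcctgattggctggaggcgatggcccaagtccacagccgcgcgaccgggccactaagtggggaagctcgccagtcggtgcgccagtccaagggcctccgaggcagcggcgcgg
Peg12 is a paternally expressed imprinted gene. Its window is on the minus strand at chr7:62464481-62464760, under a peak of 188 bp at chr7:62464546-62464733, and has 2 matches on the strand opposite to the gene.
Peg12: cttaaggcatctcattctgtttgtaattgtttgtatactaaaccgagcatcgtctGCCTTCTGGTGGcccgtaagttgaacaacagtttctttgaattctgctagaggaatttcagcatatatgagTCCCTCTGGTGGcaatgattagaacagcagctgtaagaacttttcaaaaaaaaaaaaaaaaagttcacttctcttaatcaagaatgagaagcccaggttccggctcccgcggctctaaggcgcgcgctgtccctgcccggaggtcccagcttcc
Ehd2 encodes an ATPase of caveolae. Its window is on the minus strand at chr7:15967506-15967785, under a peak of 556 bp at chr7:15967389-15967944, with 1 match whose first base lies 37 bases before the start.
Ehd2: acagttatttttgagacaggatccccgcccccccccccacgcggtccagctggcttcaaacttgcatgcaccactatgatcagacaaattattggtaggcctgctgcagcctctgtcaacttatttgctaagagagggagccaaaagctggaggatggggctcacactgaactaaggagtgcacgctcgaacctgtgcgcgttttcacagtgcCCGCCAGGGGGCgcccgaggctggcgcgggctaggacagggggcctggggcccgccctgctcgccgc
Slx1b encodes the nuclease subunit of a DNA repair complex. Its window is on the minus strand at chr7:126695754-126696033, under a peak of 413 bp at chr7:126695538-126695950, and its 1 match begins 9 bases after the start.
Slx1b: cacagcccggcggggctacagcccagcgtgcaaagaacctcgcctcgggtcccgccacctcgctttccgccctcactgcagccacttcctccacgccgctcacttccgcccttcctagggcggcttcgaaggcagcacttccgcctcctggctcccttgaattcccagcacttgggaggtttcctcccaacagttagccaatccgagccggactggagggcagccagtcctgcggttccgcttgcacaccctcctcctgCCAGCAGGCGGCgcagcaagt

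The core match was common in gene starts under a peak and rare in the others. Of 58 non-receptor windows with a peak, 29 held it (50.0%, exact 95% binomial interval 36.6 to 63.4%). Of 2359 non-receptor windows without a peak, 73 did (3.10%, 2.43 to 3.88%). Windows of a gene can overlap and windows can share a peak: the 59 windows with a peak had 51 distinct peaks. Windows are thus not independent, and the intervals for shares of windows are too narrow. The other 18 autosomes gave 45.8% of 781 windows with a peak and 3.39% of 26933 without. Over all 31396 windows of the autosomes the share was 4.41%. Shorter words from the core, the word AGGGGGC with the word AGGTGGC, the word AGAGGGC and lastly the word AGATGGC, on either strand, separated the windows less: 62.1% of the chromosome 7 non-receptor windows with a peak and 28.7% of those without held at least 1, against 27.8% of all windows. These words lie inside the core, so the searches overlap.

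Annotated receptor gene starts differed from the rest in their sequence as well. The annotated Olfr and Vmn1r genes of chromosome 7 had median lengths of only 0.954 and 0.924 kb. Whether their annotated starts are starts of transcription was not tested, so these windows may not be promoters. Of 373 receptor windows on chromosome 7, 1 held a peak midpoint, that of Vmn2r29, and 5 held the core match (1.34%, 0.437 to 3.10%). The receptor windows of the other 18 autosomes held it in 0.448% of 892. At least 1 of the shorter words lay in 20.1% of the receptor windows of chromosome 7 (16.2 to 24.5%). The share was 7.6% in receptor windows elsewhere (6.0 to 9.6%) and 29.5% in non-receptor windows of chromosome 7. The median GC content was 36.7% in the receptor windows of chromosome 7 and 54.3% in its non-receptor windows. The window of Vmn2r29 stood at 62.3% GC, above both medians. A match is a description of the letters and not a bound site, and a window without one says nothing about binding.

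Chromosome 7 was ordinary in CTCF peaks by length and low by genes. It held 10.1 peaks per Mb (95% Poisson interval 9.63 to 10.7) over a span of 142 Mb, which placed it at rank 7 of 19 autosomes, whose others ran from 5.20 on chromosome 14 to 21.3 on chromosome 11. The other 18 together held 9.34 per Mb. Chromosome 7 also held 2025 protein-coding genes, 14.2 per Mb, the highest number and the highest density of the 19, against 8.20 per Mb elsewhere. Its peaks per protein-coding gene therefore came to 0.713 (0.676 to 0.750), the lowest value of the 19 autosomes, against 1.14 over the other 18. The next lowest was chromosome 14 at 0.745, and the interval of that value overlaps that of chromosome 7. These intervals, like all of those below, cover counting error only, and since neighbouring peaks and neighbouring genes are not independent they are too narrow. No test of the difference between chromosomes was run.

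Receptor genes made up an unusual share of those genes. Chromosome 7 had 415 protein-coding receptor genes, 20.5% of its protein-coding genes, against 5.61% on the other 18 autosomes, and it carried 28.5% of all autosomal receptor genes. Runs of at least 5 receptor gene models, pseudogenes included, with gaps of at most 300 kb between neighbours were called receptor stretches. Chromosome 7 had 14 of them, which covered 17.2 Mb or 12.1% of its span. The other autosomes ranged from 0 to 5.95%, the latter on chromosome 17. Within the stretches of chromosome 7 lay 456 protein-coding genes, 22.5% of its total, and 24 peaks, 1.66% of its total.

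With the stretches set aside, chromosome 7 moved up in both measures and stayed low per gene. Outside stretches it held 11.3 peaks per Mb (10.8 to 12.0), rank 5 of 19, against 9.45 on the other 18 autosomes. Per protein-coding gene it held 0.904 (0.858 to 0.953) against 1.20, rank 18 of 19. Chromosome 14 was lower, at 0.777, and chromosome 13 practically equal, at 0.906 (0.839 to 0.976). The ratio of chromosome 7 to the other 18 was 0.626 over all genes and 0.751 outside stretches. Leaving out the stretches thus narrowed the gap without closing it. Outside stretches chromosome 7 still had 12.5 protein-coding genes per Mb against 7.85.

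**Figure D1:**
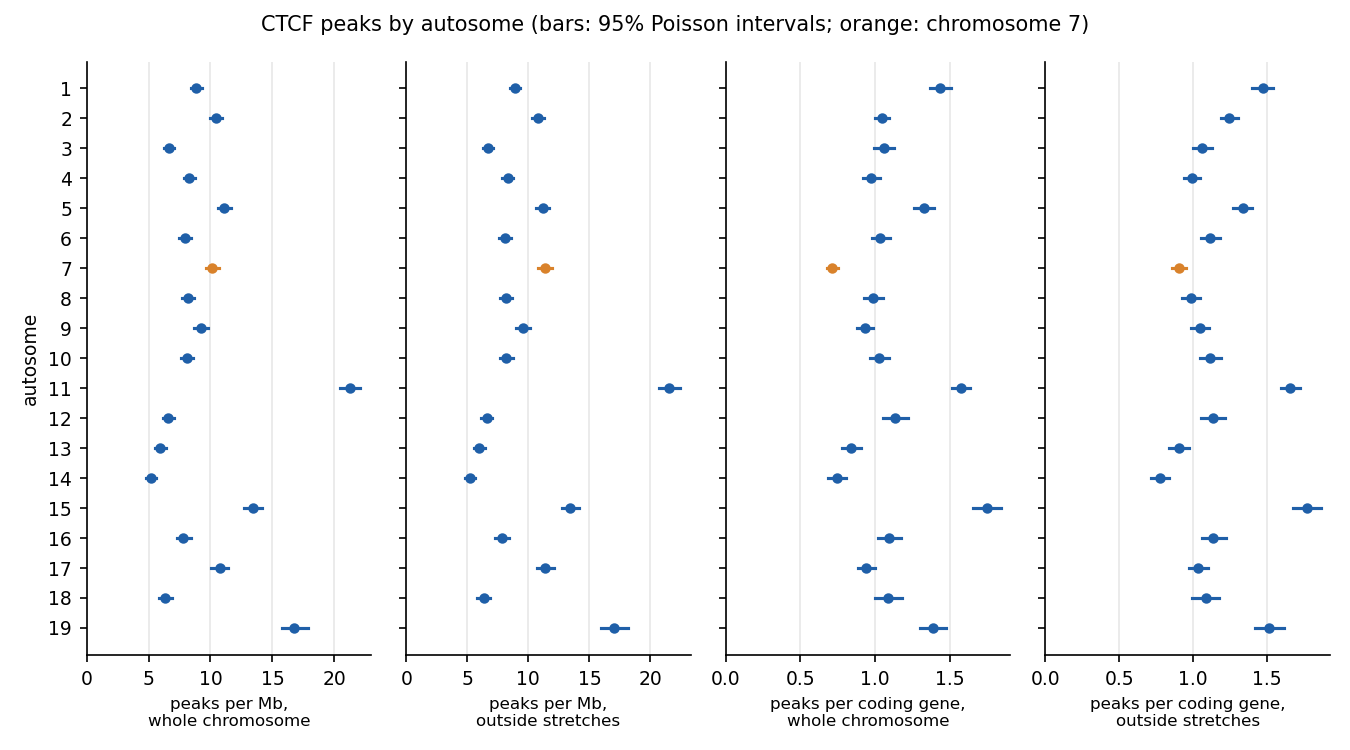
CTCF peaks per Mb and per protein-coding gene for the 19 autosomes, each over the whole chromosome and outside receptor stretches. Points are values and bars 95% Poisson intervals for counting error; chromosome 7, in orange, lies at 0.713 peaks per gene over the whole chromosome, the lowest point of that panel, and at 0.904 outside stretches.

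The share of genes with a peak nearby did not set chromosome 7 apart in the same way. A gene was counted as having a peak nearby when a peak midpoint lay between 10 kb before and 10 kb after it. Of 1610 non-receptor protein-coding genes of chromosome 7, 890 did (55.3%, exact 95% binomial interval 52.8 to 57.7%), against the background of 57.2% on the other 18 autosomes, and chromosome 7 had rank 9 of 19. Within 1 kb of either gene end, 219 did (13.6%, 12.0 to 15.4%), against a background of 13.6%, rank 8 of 19. Both shares are near their backgrounds. With the gene body alone the first share was 28.1% against 33.7%.

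Gene length also differed between the chromosomes. Outside stretches the median length of a non-receptor gene was 14.6 kb on chromosome 7 and 20.6 kb elsewhere, and 38.7% of the genes were shorter than 10 kb, against 30.4%. Within a length class the shares with a peak nearby were 47.9% on chromosome 7 and 47.1% elsewhere for genes under 10 kb, and 58.2% and 57.4% for genes of 10 to 50 kb. They were 72.4% (65.7 to 78.4%) and 67.3% for genes of 50 to 200 kb, and 84.1% (69.9 to 93.4%, 44 genes) and 78.9% for longer ones. In the shorter pair of classes the shares differed by less than 1 percentage point, and in all 4 classes the interval of chromosome 7 included the value of the other autosomes. The part of gene length in the number of peaks per gene was not tested.

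**Figure D2:**
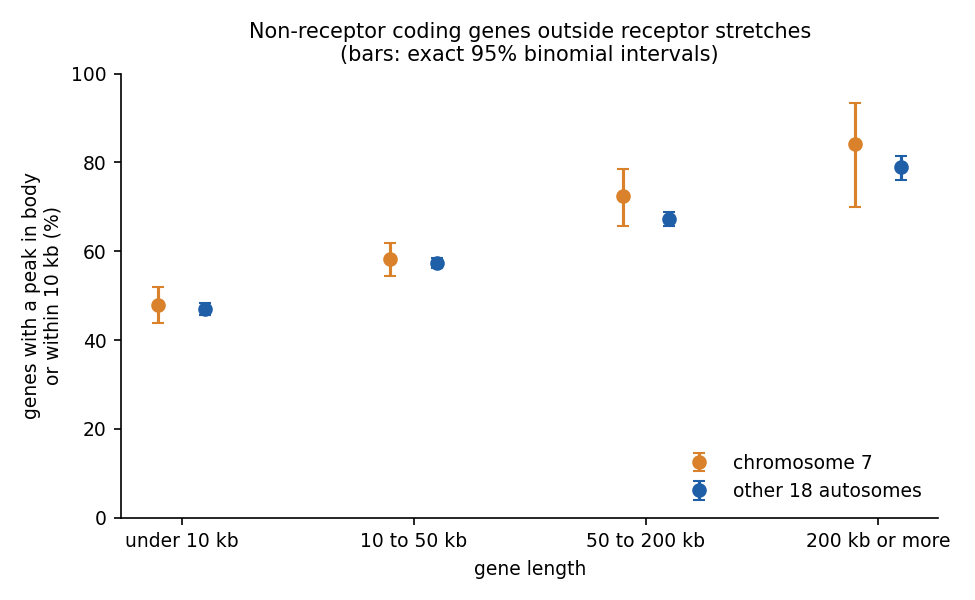
Share of non-receptor protein-coding genes outside receptor stretches with a CTCF peak nearby (10 kb or less from the gene), by gene length, for chromosome 7 and for the other 18 autosomes. Points are percentages and bars exact 95% binomial intervals; the share rises with gene length in both, from 47.9% to 84.1% on chromosome 7 and from 47.1% to 78.9% elsewhere.

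Along chromosome 7, peaks per 5 Mb window varied from 4 to 132. The 28 full windows had a median of 46.5 peaks (quartiles 24.2 and 62.0), and the 436 full windows of the other 18 autosomes had a median of 36.0 with a range of 1 to 333. The fullest windows were 15 to 20 Mb with 132 peaks, 25 to 30 Mb with 126, 140 to 145 Mb with 103 and 45 to 50 Mb with 100. Each of these held at least 114 protein-coding genes. Fewer than 15 peaks were found in 5 windows, and these were of a different make. The windows at 50 to 55 Mb with 4 peaks, 55 to 60 Mb with 9 and 90 to 95 Mb with 12 had 8, 14 and 16 protein-coding genes and no receptor gene. Those at 10 to 15 Mb and 85 to 90 Mb, with 11 peaks each, had 72 and 42 protein-coding genes, of which 32 and 29 were receptor genes.

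Counting genes without the receptors brought genes and peaks closer together along the chromosome. Over the 28 windows the Pearson correlation of peaks with all protein-coding genes was 0.602 (Spearman 0.588), and with non-receptor genes it was 0.852 (Spearman 0.809). The 436 windows of the other autosomes gave Pearson values of 0.712 and 0.798, and Spearman values of 0.803 and 0.834. The windows share 1 peak list and 1 annotation, neighbours are not independent, and no test was run. The 9 full windows that held stretch sequence had 386 peaks over 963 protein-coding genes, 0.401 per gene, and 0.699 per non-receptor gene. The 19 others had 1021 peaks over 995 genes, 1.03 per gene. Windows with a stretch thus stayed lower when genes with receptor symbols were left out of the count. The same held on the other 18 autosomes, with 0.991 per non-receptor gene in windows with a stretch and 1.25 in those without. Median peaks per window differed in direction: 37.0 with and 51.0 without a stretch on chromosome 7, and 62.0 and 35.0 elsewhere. Receptor genes were told by the symbols Olfr and Vmn alone. The stretch from Vmn1r91 to Vmn1r183 held 18 protein-coding genes with other symbols, among them V1rd19 and predicted Gm genes, which stayed in the count. How many of these are receptor genes was not tested.

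Peaks per non-receptor gene also varied between windows. The lowest value was 0.275 at 10 to 15 Mb, with 11 peaks over 40 genes, and the highest was 2.75 at 70 to 75 Mb, with 22 peaks over 8 genes. Gene-dense windows did not lead: at 15 to 20 Mb the value was 1.06 and at 25 to 30 Mb it was 0.906. Windows of 65 to 70, 75 to 80 and 135 to 140 Mb stood at 1.95, 1.96 and 1.96 with 22, 28 and 26 genes.

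**Figure D3:**
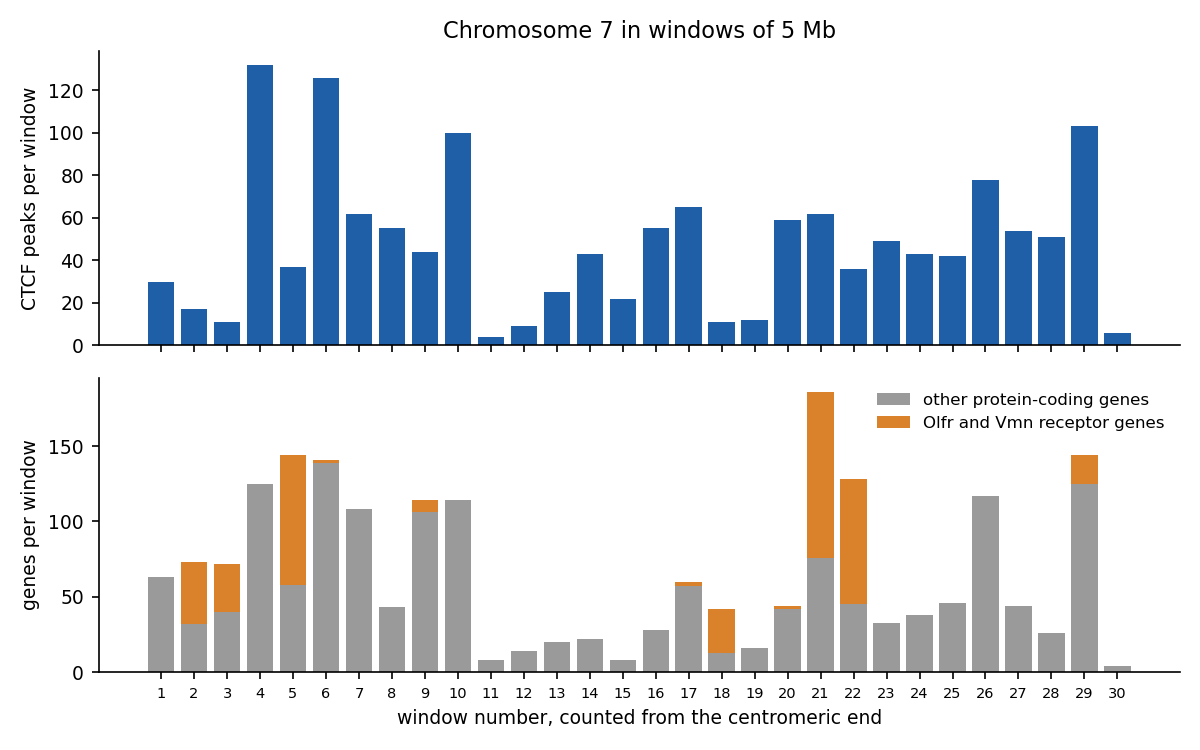
CTCF peaks (top) and protein-coding genes (bottom, receptor genes in orange) in each 5 Mb window of chromosome 7, numbered from the centromeric end; the first and last windows are not full. Bars are counts; window 4 has 132 peaks and 125 genes, and window 21 has 62 peaks and 186 genes, of which 110 are receptor genes.

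The crowded windows held genes with many peaks. At 15 to 20 Mb these were Eml2, which encodes a microtubule-binding protein, with 7 peaks in or near it, counted over the same reach of 10 kb, the ubiquitin ligase gene Cblc with 6, and Ehd2 and the chromatin remodelling gene Bicra with 5 each. In the single Mb from 19 to 20 Mb there were 60 peaks and 53 protein-coding genes, and no other Mb of the chromosome, counted from position 1, had as many peaks. At 25 to 30 Mb they were Ryr1, the calcium release channel of skeletal muscle, with 8, the B cell transcription factor gene Pou2f2 with 7, the spectrin gene Sptbn4 with 7 and Numbl, a relative of the Notch inhibitor Numb, with 5. At 140 to 145 Mb the postsynaptic scaffold gene Shank2 had 9, the transporter gene Slc22a18 6, the chloride channel gene Ano1 5 and the ribosomal protein gene Rplp2 4.

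In the emptiest windows few non-receptor genes had a peak nearby, which follows in part from choosing windows with few peaks. They were 2 of 8 at 50 to 55 Mb, 4 of 14 at 55 to 60 Mb and 6 of 40 at 10 to 15 Mb. The window at 85 to 90 Mb, with 11 peaks like the last of these, had 4 of 13. Over the whole chromosome the share was 55.3%. At 50 to 55 Mb the cytoskeletal gene Gas2 had 2 peaks and the vesicular glutamate transporter gene Slc17a6 had 1. At 55 to 60 Mb the melanosome gene Oca2 had 2, and Nipa1, Herc2 and the GABA receptor subunit gene Gabra5 had 1 each. Among the 6 genes at 10 to 15 Mb, the zinc finger gene Mzf1 had 2, and Zscan22, Zfp446 and the bile acid ligase gene Slc27a5 had 1 each.

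Inside the 14 receptor stretches peaks were sparser than in the sequence beside them. The stretches held 1.40 peaks per Mb (0.895 to 2.08) against 10.3 (8.05 to 13.0) in the 250 kb on each side, with a summed count of 72. Flanks of some neighbouring stretches overlap, and a peak or sequence in the overlap was counted for each of them. The sum of 72 therefore exceeds the number of distinct peaks. The flanks were denser than the stretch in 12 of 14. In the exceptions, Vmn2r-ps50 to Vmn1r71 had no peak inside or in the flanks, and Olfr693 to Olfr716 had 1 inside and none in the flanks. Outside all stretches the density of the chromosome was 8.12 times that inside, and on the other 18 autosomes it was 3.61 times. Of the 27 protein-coding genes next to a stretch, 7 had a peak within 10 kb (25.9%, 11.1 to 46.3%), below the 55.3% of all non-receptor genes of chromosome 7: Mzf1 and the protease gene Ovch2 with 2 each, and Nlrp9b, 4933421I07Rik, Trim6, Nlrp10 and the prion-like gene Sprn with 1 each. Per protein-coding gene the stretches of chromosome 7 held 0.0526 peaks and those of the other autosomes 0.0886.

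Whether the stretches of chromosome 7 were sparser than those elsewhere depended on how stretches were drawn. The other 18 autosomes had 40 stretches with 97 peaks, 2.62 per Mb (2.12 to 3.20), of which 1 stretch alone held 22. With gaps of at most 100 kb the values were 1.39 per Mb on chromosome 7 and 1.41 elsewhere, and per gene they turned around, at 0.0480 and 0.0422. By family, the 6 Olfr stretches of chromosome 7 held 2.92 peaks per Mb (1.60 to 4.91) against 1.63 (1.12 to 2.31) in the 24 elsewhere. The 7 Vmn stretches held 0.984 (0.472 to 1.81) against 1.59 (0.893 to 2.63) in 10 elsewhere. The 1 mixed stretch, Vmn2r-ps62 to Vmn2r79, had no peak over 2.23 Mb. The 6 mixed stretches elsewhere held 50 of the 97 peaks, 6.22 per Mb (4.62 to 8.20), and 42 protein-coding genes of other kinds. Receptor genes resemble one another, and a short read can match more than 1 copy, so these counts are uncertain. Whether enough reads were placed in the regions without a peak was not tested.

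**Figure D4:**
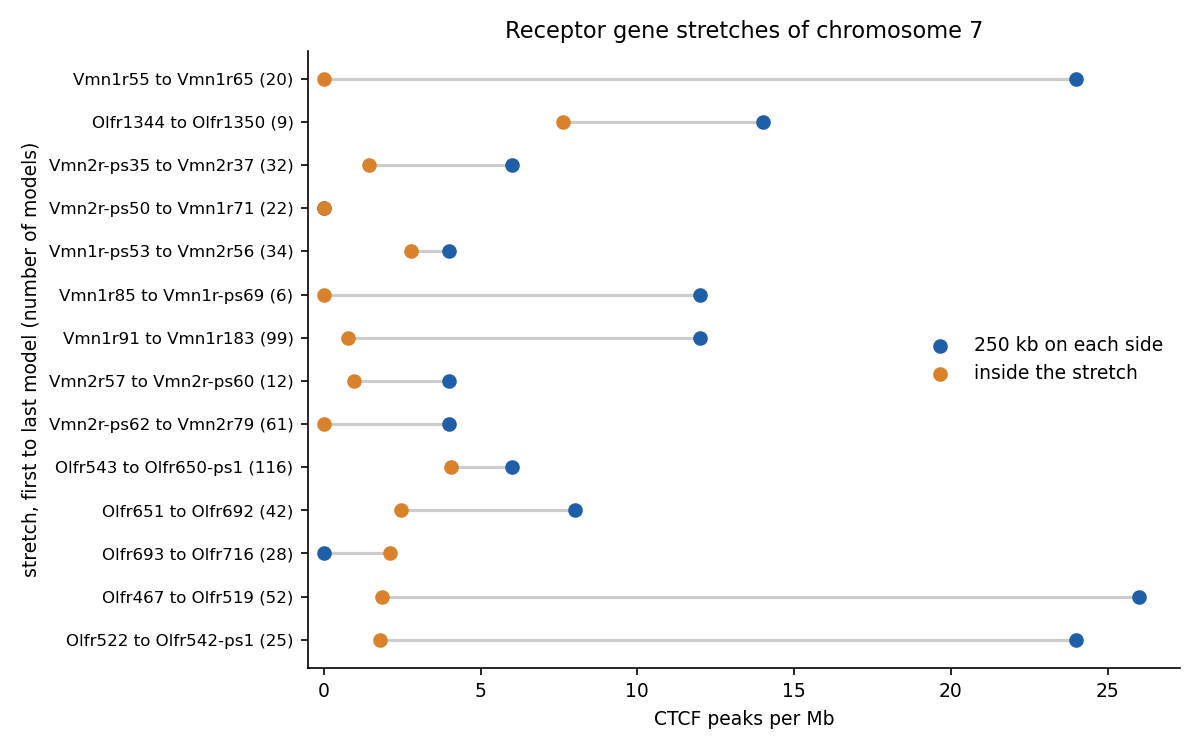
CTCF peaks per Mb inside each of the 14 receptor stretches of chromosome 7 (orange) and in the 250 kb on each side together (blue), in order from the centromeric end, with the number of receptor gene models in brackets. Each point is 1 density with no error drawn; the flanks lie above the inside in 12 stretches, and 4 stretches hold no peak.

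The largest stretch, Vmn1r91 to Vmn1r183 at 20101158 to 24055691, held 99 models and 3 peaks over 3.95 Mb. One of the 3 lay in Nlrp5, which encodes an oocyte protein, and the nearest receptor models to the 3 were 53.6, 62.9 and 14.9 kb away. Its left neighbour Nlrp9b had 1 peak within 10 kb, and its right neighbour Zfp180 had none. The stretch with the highest number of models and peaks was Olfr543 to Olfr650-ps1 at 102476773 to 104207006, with 116 models and 7 peaks over 1.73 Mb. This stretch includes the 5 beta-globin genes kept in the annotation, Hbb-bt, Hbb-bs, Hbb-bh2, Hbb-bh1 and Hbb-y, and 0 of the 5 had a peak within 10 kb. The globin genes lay in an interval of 1.22 Mb without a peak, from 102695780 to 103913039, together with 64 Olfr genes.

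Of the 24 peaks inside stretches, 16 lay within 10 kb of a receptor model, 2 lay inside one, and 6 lay within 10 kb of a protein-coding gene of another kind. The 2 were the peak at Vmn2r29 and a peak in Olfr687 at 105256709 to 105257000. The 6 were beside Clcn4, which encodes a chloride and proton exchanger, with 3, and Nlrp5, Zfp788 and the ubiquitin ligase gene Trim68 with 1 each. The peak at Vmn2r29 is 1 of the 3 beside Clcn4, at a distance of 4.02 kb from it. Of the 24, 7 lay within 50 kb of an edge of their stretch. The stretches held 558 receptor models over 17.2 Mb. How much of their sequence lies within these distances of a model, another gene or an edge was not measured, so these counts have no background. The median width of the 24 was 250.5 bp, against 261 bp for the peaks of chromosome 7 outside stretches.

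Most receptor genes were far from any peak. Of the 415 protein-coding receptor genes, 18 had a peak nearby (4.34%, 2.59 to 6.77%), against a background of 4.91% on the other 18 autosomes. By family these were 17 of 239 Olfr genes (7.11%, 4.20 to 11.1%), 0 of 124 Vmn1r genes (upper limit 2.93%) and 1 of 52 Vmn2r genes. On the other autosomes they were 44 of 864 (5.09%), 5 of 105 (4.76%) and 2 of 70 (2.86%). Each of the 18 had 1 peak. Olfr555 and Olfr556 stood on either side of 1 peak, at 102665425 to 102665638, and so did Olfr65 and Olfr631, at 103913040 to 103913258. A gene and its neighbour can therefore owe their counts to the same peak. The median distance from a receptor gene to the nearest peak was 242 kb on chromosome 7 and 227 kb elsewhere, and 106 of the 415 were over 500 kb away. For non-receptor genes the medians were 6.96 and 5.50 kb.

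Long intervals without a peak covered much of the chromosome, with and without receptors. There were 23 of at least 1 Mb, 39.7 Mb together or 27.9% of the span, against 24.7% on the other 18 autosomes. Stretch sequence lay in 8 of them, 12.2 Mb in all. They held 393 whole protein-coding genes, of which 272 were receptor genes. The longest, 4.71 Mb at 7299714 to 12010486, held 34 receptor genes and 4 Zscan4 genes, which encode factors of the early embryo. The third longest, 3.10 Mb at 20064414 to 23163583, held 68 Vmn1r genes and 14 predicted Gm genes.

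Other long intervals had few receptor genes or none. The interval of 3.76 Mb at 51979596 to 55737586 held 3 protein-coding genes, among them Luzp2 and Svip. The interval of 2.80 Mb at 31177554 to 33982341 held 32 protein-coding genes, and all 32 were Scgb genes, which encode small secreted proteins. The 6 Obox homeobox genes of the oocyte and early embryo were the whole gene content of 1.27 Mb at 14593380 to 15859739. An interval of 1.48 Mb at 13063702 to 14540087 held 8 Sult sulfotransferase genes and 5 Vmn1r genes.

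Gene families and functional lists ranged from no member with a peak to nearly all. Against 55.3% of all non-receptor genes of chromosome 7, the Scgb genes (0 of 36, upper limit 9.74%), the Obox genes (0 of 6), the leukocyte receptor genes Lilr and Pir (0 of 5) and the beta-globins (0 of 5) had none. Mrgpr genes, receptors of itch and pain neurons, had a peak at 3 of 19, with 1 each at Mrgprg, Mrgpre and Mrgprf. Kallikreins, a family of secreted proteases, had 7 of 26, with 3 at Klk4, 3 at Klk15 and 2 at Klk14. Zfp genes had 29 of 93 (31.2%, 22.0 to 41.6%), with 5 at Zfp536, a neural zinc finger gene of 456 kb, and 3 at Zfp36, which encodes an mRNA decay factor. The Zfp genes of the other autosomes stood at 35.9% (30.4 to 41.7%), so low shares were found in that family on and off chromosome 7. Many of these families consist of similar copies too, which leaves their counts uncertain.

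Families of the immune system, of detoxification and of pregnancy lay between. Nlrp genes, of inflammasomes and oocytes, had 4 of 13 with 1 peak each. Ceacam and Psg genes, which encode cell adhesion and placental glycoproteins, had 11 of 28, with 3 at Psg16, 3 at Ceacam16 and 2 at Ceacam19. Siglec genes with Cd33, sialic acid receptors of leukocytes, had 2 of 5, with 2 peaks at Siglece. Cyp2 genes, which encode drug-metabolising oxygenases, had 6 of 15 (40.0%, 16.3 to 67.7%), against 3 of 32 elsewhere (9.37%, 1.98 to 25.0%). The Cyp2 counts were led by Cyp2f2 with 3, of which 3 lay in the gene body, and Cyp2b19 with 2.

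Potassium channel genes, growth factor and fibroblast genes and ribosomal protein genes had the highest shares. Kcn genes had 8 of 9 (88.9%, 51.8 to 99.7%), against 53 of 83 elsewhere, with 3 at Kcnn4, the calcium-activated channel of fibroblasts and lymphocytes. Ribosomal protein genes had 10 of 14, against 44 of 63 elsewhere, with 4 at Rplp2. Growth factor and fibroblast genes had 15 of 19 (78.9%, 54.4 to 93.9%). In that list Ltbp4, which encodes a matrix protein that stores latent TGF-beta, had 4 peaks, all in the body. The tyrosine kinase gene Fes and the secreted factor gene Fgf15 had 4 each, and the AP-1 subunit gene Fosb had 3. With lists this short the intervals are wide, and those of all 3 include the 55.3% of all non-receptor genes.

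**Figure D5:**
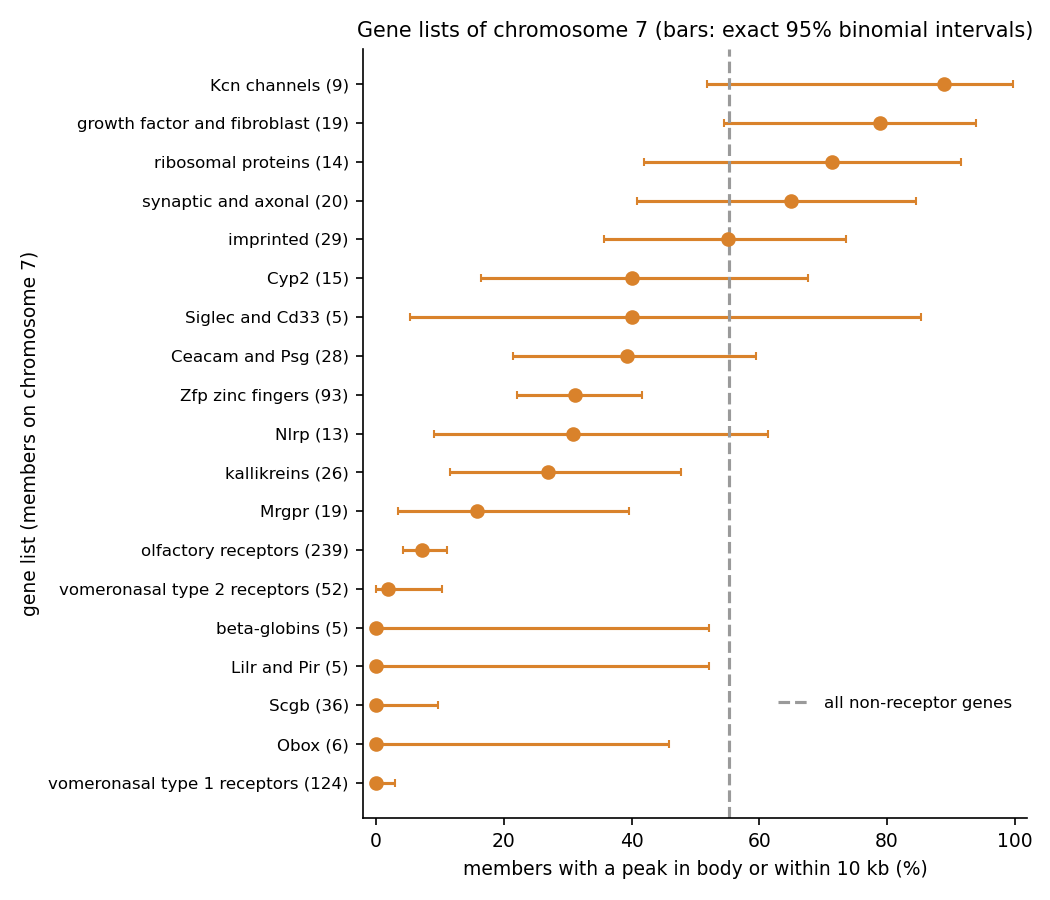
Share of the members of 19 gene lists on chromosome 7, all protein-coding except 3 members of the imprinted list, with a CTCF peak nearby, with the number of members in brackets. Points are percentages, bars exact 95% binomial intervals, and the dashed line marks the 55.3% of all non-receptor genes; 5 lists stand at 0, and the Kcn genes are highest at 88.9%.

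Imprinted genes, which are expressed from 1 parental copy, had a peak at 16 of 29 (55.2%, 35.7 to 73.5%), near the 55.3% of all non-receptor genes. Without the 3 non-coding members the count was 16 of 26 (61.5%, 40.6 to 79.8%). Slc22a18 had 6, Ano1 5, Usp29 4 and the growth inhibitor gene Cdkn1c 3, and since Slc22a18 and Cdkn1c lie 12.7 kb apart, the 3 peaks of Cdkn1c were counted for Slc22a18 as well. The interval between Igf2 and H19 contains a textbook CTCF-dependent insulator. No peak was listed within 10 kb of Igf2 or of the non-coding gene H19, and whether reads were obtained there was not tested. Between them, but farther than 10 kb from both, a peak was listed at 142610642 to 142610854, at the start of the predicted gene Gm33148. The position of the insulator was not looked up, so this peak is not assigned to it.

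Synaptic and axonal genes had a peak at 13 of 20 (65.0%, 40.8 to 84.6%), an interval that includes the 55.3% of all non-receptor genes. Their median length was 245 kb, and of all genes of 200 kb or more outside stretches 84.1% had a peak. The list held long genes with many peaks and long genes with none. Nav2, which encodes a navigator protein of growing axons, had 17 peaks over 651 kb, 16 of them in the body, the highest count on the chromosome. Shank2 had 9 over 448 kb, the teneurin gene Tenm4 6 over 740 kb and the adaptor gene Apba2 5 over 252 kb. The 5 longest genes with no peak in the body were Nell1 (888 kb), which encodes a secreted signalling protein, Gabrg3 (671 kb), a GABA receptor subunit gene, the glutamate receptor gene Grm5 (551 kb), Luzp2 (434 kb) and the heparan sulfate sulfotransferase gene Hs3st4 (417 kb). None of the 5 had a peak within 10 kb either. Nell1 begins 365 kb after the end of Nav2.

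The genes named as densest in peaks for their size were 14.4 to 62.4 kb long. The median of non-receptor genes outside stretches was 14.6 kb. The measure divides by length, so it favours shorter genes. Per 100 kb of that reach, and among genes with at least 5 peaks, the leaders were 1600014C10Rik with 11 peaks (32.0 per 100 kb), Cblc (16.2), Eml2 (14.0), the cation channel gene Trpm4 with 7 peaks (13.7) and Slc22a18 (13.2). They were followed by Ehd2 (12.3), the branched-chain aminotransferase gene Bcat2 (12.3), the Golgi mannosidase gene Man2a2 (11.8), Numbl (11.4) and Arhgef17 with 7 peaks (8.49). Sptbn4, Myh14, which encodes a non-muscle myosin, Pou2f2 and Ryr1 had 7 to 8 peaks at 5.64 to 8.23 per 100 kb. Of the 6 peaks counted for Slc22a18, 1 lay in its body, so the count of such a gene reflects the surroundings as well.

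The 11 peaks of 1600014C10Rik lay between 38176252 and 38201308, and 5 of them in the gene body of 14.4 kb. Among them were 2 of 1265 bp each, at 38190209 to 38191473 and 38194037 to 38195301. The widest pair on the chromosome lay inside the stretch from Vmn1r-ps53 to Vmn2r56, with 2366 bp at 12010487 to 12012852 and 2767 bp at 12013506 to 12016272, followed 12 bp later by a peak of 469 bp. That trio made up all 3 peaks of its stretch. Why these intervals are wide was not tested.

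Over all 1443 peaks, width and spacing had medians near those of the other 18 autosomes. The median width was 261 bp (quartiles 218 and 308 bp) against 262 bp, and 45 peaks (3.12%) were at least 500 bp wide, against 4.11%. From one midpoint to the next the median was 30.1 kb, against 32.8 kb, and 24.6% of these distances fell below 10 kb, against 25.1%.

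By position relative to genes, a larger share of the peaks lay at gene ends than on any of the other 18 autosomes. Within 1 kb of the end of an annotated gene of any type lay 283 of the 1443 (19.6%, 17.6 to 21.8%), against 16.3% on the other 18 autosomes, which ranged from 13.4 to 18.3%. Elsewhere in a protein-coding gene lay 42.7%, against 42.6%, and elsewhere in another gene 5.68%, against 6.16%. Outside genes lay 32.0% (29.6 to 34.5%), against 34.9%, rank 17 of 19. Chromosome 7 has more genes per Mb than the other autosomes, and the part of that density in the share at gene ends was not tested.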

How the data were processed

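CTCF was measured in 4 immunoprecipitation libraries and 1 input library, grouped by their titles. The submitters' processing notes name STAR, Picard, MACS2, mm10 and dm6, without roles or versions. The sources used here do not give the peak threshold, the part of the Drosophila spike-in or the merging of replicates. The authors deposited 1 merged list of positions with no count, score or signal, so depth is unknown. Positions are on mm10, counted from 1. Genes came from the RefSeq table for GRCm38.p6 (49997 genes), without strand; 10 genes placed below 3 Mb on chromosome 7, the adult globin models Hbb-b1 and Hbb-b2 among them, were left out.

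Peaks and genes were placed by midpoint. A chromosome's span began at its first gene or peak and ended at its last. Intervals are exact 95% Poisson or binomial intervals, and ranks are over 19 autosomes. No test was run, since the list holds no replicates. The members and lists were chosen with earlier results of these data known. Named genes were those with most peaks, most peaks per 100 kb (at least 5 peaks), up to 4 of each list, up to 10 receptor genes, up to 4 in each of the 3 fullest and 3 emptiest windows, the 5 longest without a body peak, other genes with a peak inside stretches, and stretch neighbours. Length classes, position classes, flanks, peak-free intervals and the single peaks and genes named with them were chosen after their values were seen. Counting was tested on simulated data. Python 3.11.15, numpy 2.4.6, pandas 2.3.3 and scipy 1.17.1 were used. Alternatives changed the peaks used, the stretch rule, the denominators and the distances.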

Additional observations from a re-analysis of the deposited data

How the results depend on the processing

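In all, 53 alternatives were run over 11 results, and 21 moved a value of chromosome 7 beyond its interval. The ratio to the other 18 autosomes kept its side of 1 in 48 of the 53. With peaks of 262 bp (the median) or wider, fewer peaks remain by construction: 5.05 per Mb, 0.355 per protein-coding gene, 5.65 per Mb and 0.451 per gene outside receptor stretches, and 0.640 per Mb and 0.0241 per gene inside. The shares with a peak were then 38.0% of non-receptor genes, 1.20% of receptor genes and 7.76% of non-receptor genes at an end. With all genes as denominator, peaks per gene were 0.348, and 0.423 outside stretches. Without receptor genes the value was 0.896, and without Zfp genes outside stretches 0.958. With gaps of up to 1 Mb, stretches held 2.36 peaks per Mb and 0.0979 per gene. Shares with a peak were 28.1% and 0.482% (receptor genes) for the body alone, and 82.8% and 14.7% for 50 kb each side. Gene ends within 500 bp and 2.5 kb gave 8.82% and 24.8%. The ratio of peaks per gene stayed between 0.619 and 0.743 for all genes and between 0.737 and 0.820 outside stretches. It changed side of 1 for peaks per gene inside stretches with gaps of at most 100 kb (1.14), for non-receptor genes with 50 kb each side (1.01), for receptor genes in the body alone (1.67), and for gene ends with wide peaks (0.910) or within 500 bp (0.998). No paired analysis was possible because the list merges the libraries and ties no peak to a replicate. Depth is unknown, so a place without a listed peak cannot be told apart from one with too few reads.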

Other observations

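Symbol families outside the gene lists had shares on either side of the 55.3% of all non-receptor genes of chromosome 7 (57.2% on the other 18 autosomes). Slc transporter genes had a peak nearby, at most 10 kb from the gene, at 13 of 15 members (86.7%), against 226 of 347 on the other 18 autosomes (65.1%). Ppp phosphatase subunit genes had 8 of 10, against 40 of 66 (60.6%). Tripartite motif genes (Trim) had 4 of 16 (25.0%), against 32 of 52 (61.5%), and Tmem genes had 7 of 19 (36.8%), against 120 of 212 (56.6%). Near the overall share were Fam genes, with 8 of 14 (57.1%, against 58.8%), and Cd genes, with 6 of 11 (54.5%, against 45.3%). Ccdc genes had 9 of 11, against 82 of 123 (66.7%). Sult genes had 2 of 10, against 3 of 11. The predicted Gm genes stood at 21.8% on chromosome 7 and 21.7% elsewhere. These families were chosen after their values were seen, and no test was run.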
